A study of Mus musculus with 19 samples.

Results

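The 28 genes described here encode soluble enzymes of the lysosome, proteins of its membrane and regulators of its function: 6 cysteine cathepsins, 2 other proteases, 7 glycosidases, 4 genes of lipid and cholesterol handling, 5 membrane glycoproteins, channels and receptors, 2 proton pump genes and 2 regulators. They were taken by gene symbol from the deposited tables of mouse liver RNA sequencing, which together list 24192 genes. All 28 were found, and all 28 passed the filter on low counts in every comparison, so no member was lost to it.

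The lysosome is the acidic compartment in which cells degrade proteins, glycans and lipids delivered by endocytosis and autophagy. A proton pump in its membrane, the V-ATPase, keeps the pH at which the hydrolases work. The transcription factor TFEB, which is held in the cytoplasm when nutrients are plentiful, drives many lysosomal genes together through a promoter element called CLEAR, whose centre is an E-box. In liver, hepatocytes use lysosomes to hydrolyse lipid droplets and lipoprotein cholesteryl esters, and resident and recruited macrophages are rich in lysosomal enzymes.

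Whole livers of adult mice were profiled in 4 groups that cross diet with genotype, 1 library per mouse as labelled. LF-C (4 libraries) were control mice on a low fat diet, and LF-KO (4 libraries) were mice labelled as a hepatocyte-specific PPARγ knockout on the same diet. HF-C (5 libraries) and HF-KO (6 libraries) were the control and knockout-labelled mice on a diet rich in fat, fructose and cholesterol, whose livers carry the label non-alcoholic steatohepatitis. The knockout was induced in hepatocytes ahead of the 24 weeks on the HF diet. The strain, the sex, the exact age, the tool that induced the knockout and the weeks spent on the LF diet are not stated in these sources. A whole liver holds many cell types, so in these bulk samples a change in the number of cells of a type and a change in RNA per cell cannot be told apart.

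The CLEAR-type E-boxes of the members are shown because CLEAR is the element through which TFEB drives many lysosomal genes. In the RefSeq promoters of build GRCm38.p6 (250 bases before to 50 bases after each start), 25 of the 28 members had 29 promoters. Ctsb, Ctsh and Npc1 were not matched. The core CACGTG was searched on both strands, as were TCACGTG, which has 1 more base, and the palindrome TCACGTGA. Every match to a longer motif is also a match to the shorter ones. The core lay in 24.1% of the member promoters and in 7.15% of all 32851 promoters. The second motif lay in 20.7% against 3.77%, and the palindrome in 13.8% against 0.974%. In the 5 lists of other lysosomal and autophagy genes read below, the core lay in 13.6% to 35.3% of promoters. The palindrome lay in 0% to 17.6% of them, so the shares are not particular to the 28 members. The 7 members with a match were Ctsa, Gla, Mcoln1, Atp6v1a, Lamp1, Glb1 and Ctsl, and the first 4 of these held the palindrome. Capitals mark the matches in the stretches before the start that follow, each with its position and strand in GRCm38.p6.
Ctsa (chr2:164833750-164833772, plus strand): gagcaaactgTCACGTGAtgcag
Gla (chrX:134601183-134601243, minus strand): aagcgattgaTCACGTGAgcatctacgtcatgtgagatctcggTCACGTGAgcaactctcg
Mcoln1 (chr8:3500437-3500490, plus strand): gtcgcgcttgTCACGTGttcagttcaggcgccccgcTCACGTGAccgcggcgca
Atp6v1a (chr16:44139374-44139401, minus strand): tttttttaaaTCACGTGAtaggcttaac
Lamp1 (chr8:13159089-13159160, plus strand): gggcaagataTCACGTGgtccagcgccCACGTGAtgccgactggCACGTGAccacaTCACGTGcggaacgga
Glb1 (chr9:114401019-114401045, plus strand): tgcttctgagTCACGTGgcctacagag
Ctsl (chr13:64370741-64370766, minus strand): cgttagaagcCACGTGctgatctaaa
The Lamp1 stretch held 4 copies of CACGTG, and Gla and Mcoln1 held 2 each. Ctsa held a second palindrome after its start, which is not shown. The starts are those of RefSeq and can differ from the deposited gene positions. The stretches of Ctsa and Atp6v1a lie inside the deposited gene positions, and those of Lamp1 and Mcoln1 reach into them. A match describes letters in a window and is not evidence that a factor binds there, and no match says only that these letters were not in the window.

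Library depth ranged from 11437875 to 20711869 counted fragments, and 27 members had at least 10 fragments in every library, the exception being Ctsk with 4 in LF-C-1. Levels are given as CPM, the usual depth-scaled count, with TMM factors. Pparg, the targeted gene, did not have lower counts under the KO label. It lay at 11.2 ± 5.74 CPM (SD, n = 4) in LF-C, 25.3 ± 15.4 (n = 4) in LF-KO, 25.4 ± 4.32 (n = 5) in HF-C and 68.7 ± 25.6 (n = 6) in HF-KO. It was higher, not lower, in HF-KO than in HF-C (log2 fold change 1.47 ± 0.23 SE, edgeR adjusted p = 0.00276). LF-KO against LF-C had no call (1.15 ± 0.49 SE, edgeR adjusted p = 0.704). KO therefore means the label in what follows. A count per gene does not show whether a deleted exon is missing from the transcript. The labelled tissue was in order, with the 10 hepatocyte markers summing to between 44424 and 194839 CPM in every library.

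6 libraries stood apart because their deviations from the mean library followed the GC content of genes, with a Spearman rho beyond 0.4 in size over 9993 genes. These were LF-C-1 (0.490) and LF-C-2 (0.504), rich in GC, and LF-KO-2 (-0.467), HF-KO-2 (-0.544), HF-KO-3 (-0.464) and HF-KO-6 (-0.460), poor in GC. The remaining 13 lay between -0.180 and 0.168 for GC content, but between -0.240 (LF-KO-3) and 0.602 (HF-KO-5) for gene length. LF-C-2 also had the lowest TMM factor, 0.644 where the others had 0.865 to 1.21. Its mitochondrial share of counts was the lowest too, 1.638% where the others had 4.019% to 5.924%. LF-C-2 was the highest LF-C library for 15 members and the lowest for 12, and HF-KO-2 was the highest HF-KO library for 10 and the lowest for 13. Each result was therefore recomputed with each library's GC and length trend removed, and without these libraries. The first setting keeps all libraries and the second leaves LF-C with 2.

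**Figure D1:**
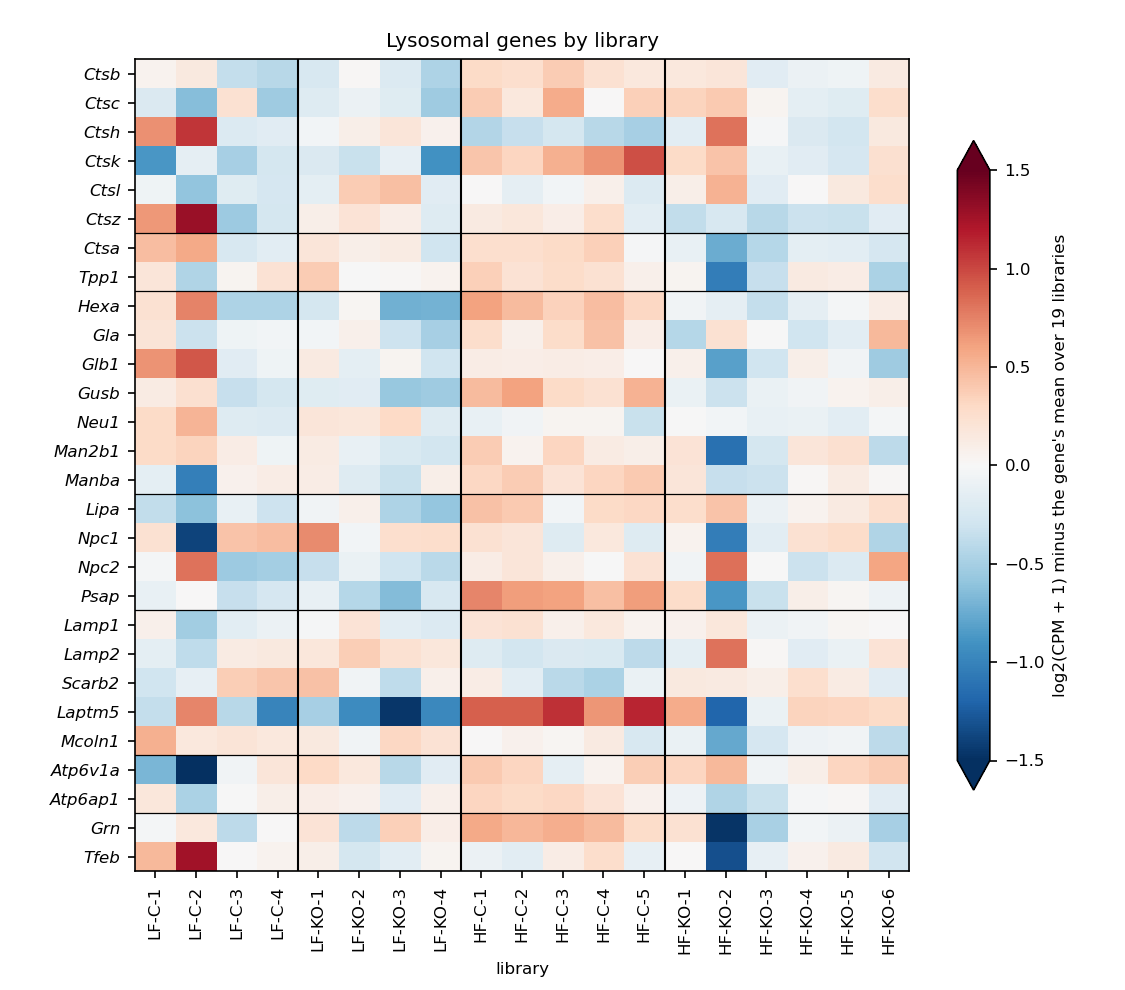
Each cell is log2(CPM + 1) of a gene in a library minus that gene's mean over the 19 libraries, with genes in rows by role and libraries in columns by group. Psap and Laptm5 are above their means in all 5 HF-C libraries, and LF-C-2 and HF-KO-2 hold many of the extreme cells in both directions.

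Compared per length, in FPKM, the members spanned a wide range. Lamp1, a heavily glycosylated protein that lines the lysosomal membrane, had the highest mean over the 19 libraries at 336 FPKM. It was followed by the endopeptidase gene Ctsl at 303, the saposin precursor gene Psap at 272, Lamp2 at 189, the carboxypeptidase gene Ctsz at 188 and Ctsb at 180. Their order by group mean differed between groups. Ctsl was at 320 ± 16.8 FPKM in HF-C (SD, n = 5), below Lamp1 at 410 ± 17.6 and Psap at 435 ± 35.9. In LF-KO Ctsl was at 305 ± 62.7 (n = 4), above Lamp1 at 298 ± 49.5 by less than the spread. The lowest were Ctsk at 1.22 FPKM, the alpha-galactosidase gene Gla at 2.26 and Tfeb at 5.41. The other 19 members lay between these ends. The libraries are not strand-specific, so reads of genes on opposite strands that overlap cannot be told apart. This touches Ctsb (with Fdft1), Ctsz (Nelfcd), Ctsa (Pltp and Neurl2), Npc1 (3110002H16Rik) and Grn (Fam171a2). Glb1 overlaps Tmppe on the same strand, at mean counts of 226 and 154.

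The effect of the HF diet in control mice was asked by comparing HF-C with LF-C. Of the 28 members, 4 were higher on the HF diet (Psap, Ctsk, Lipa and Laptm5) and 1 was lower (Ctsh) at an adjusted p under 0.05. These are 14.3% and 3.57% of the members, where 10.6% of all 13825 genes tested were higher and 7.15% lower, so the shares of members are near the background. Scaled by library size alone, 12 members were higher and 0 lower, beside 19.7% and 2.36% of all genes. The median log2 fold change was 0.23 over the members and 0.02 over all genes, with 18 members positive and 10 negative. Groups that did not overlap were found for 6 members upward (Ctsb, Ctsk, Manba, Lipa, Psap and Grn) and 2 downward (Ctsh and Mcoln1), where 13.3% and 8.44% of all genes did not overlap.

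Psap encodes the precursor of the saposins, the activators that present sphingolipids to hydrolases. Its levels were 616, 671, 523 and 559 CPM in the 4 LF-C libraries and 1107, 1028, 1015, 909 and 1029 CPM in the 5 HF-C libraries. All HF-C libraries were above all LF-C libraries. The log2 fold change was 0.75 ± 0.15 (edgeR adjusted p = 0.00754), and it kept its call in 17 of 18 alternative settings. The gene lies on chromosome 10 at 60277627-60302597 on the plus strand, in the deposited coordinates.

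Lipa encodes lysosomal acid lipase, which hydrolyses cholesteryl esters and triglycerides. Its levels were 228, 192, 272 and 238 CPM in LF-C and 398, 388, 285, 359 and 366 CPM in HF-C (chromosome 19, 34492318-34527474, minus strand). The groups did not overlap, although HF-C-3 came close to the highest LF-C library, LF-C-3. The log2 fold change was 0.61 ± 0.16 (edgeR adjusted p = 0.0245), and it was 0.37 with an adjusted p of 0.0738 once the GC and length trends were removed. The cholesterol exporters Npc1 and Npc2, which pass cholesterol out of the lysosome after Lipa has released it, had log2 fold changes of -0.06 ± 0.31 and 0.04 ± 0.28 and no call.

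Ctsk, a collagen-degrading cathepsin best known from osteoclasts, was the member with the largest log2 fold change in this comparison. Its levels were low, 0.402, 1.35, 0.819 and 1.14 CPM in LF-C against 2.44, 2.21, 2.71, 3.11 and 4.03 CPM in HF-C (chromosome 3, 95499286-95509362, plus strand). Every HF-C library exceeded every LF-C library, at 1.59 ± 0.35 on the log2 scale (edgeR adjusted p = 0.0118). It was called in 17 of 18 alternative settings.

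Laptm5 encodes a lysosomal membrane protein known from blood-derived cells. It was at 29.8, 64.2, 28.4 and 18.8 CPM in LF-C and at 72.1, 72.4, 82.8, 61.2 and 85.7 CPM in HF-C (chromosome 4, 130913125-130936141, plus strand). The ranges overlapped through LF-C-2 alone. The log2 fold change was 1.05 ± 0.32 (edgeR adjusted p = 0.0483), and without LF-C-1 and LF-C-2 it was 1.66 with an adjusted p of 9.14e-05. Leaving out single libraries kept the call in 1 of 9 cases, so at this threshold it rested on most of them.

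Ctsh, an aminopeptidase among the cathepsins, went the other way. Its levels were 437, 572, 236 and 243 CPM in LF-C and 201, 214, 227, 204 and 192 CPM in HF-C (chromosome 9, 90054152-90076089, plus strand). The groups did not overlap, but LF-C-3 and LF-C-4 lay just above HF-C while LF-C-1 and LF-C-2 lay far above. The log2 fold change was -0.88 ± 0.27 (edgeR adjusted p = 0.0468). Without LF-C-1 and LF-C-2 it was -0.21 with an adjusted p of 0.173, so the value moved by over 1.5 times and the call was lost.

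3 further members were among the 8 smallest p-values without a call. Grn encodes progranulin, a secreted and lysosomal glycoprotein needed for normal lysosome function. It was at 211, 241, 165 and 218 CPM in LF-C and 320, 306, 315, 301 and 261 CPM in HF-C, groups that did not overlap, at a log2 fold change of 0.50 ± 0.16 (edgeR adjusted p = 0.055). Ctsc, which activates serine proteases of immune cells, was at 93, 69.2, 127 and 74.3 CPM in LF-C and 141, 121, 160, 109 and 139 CPM in HF-C (0.54 ± 0.20, edgeR adjusted p = 0.0885). The ranges overlapped because LF-C-3 exceeded 2 of the HF-C libraries. Gusb, the beta-glucuronidase gene, was at 40.3, 43.8, 29 and 30.5 CPM in LF-C and 51.8, 56.5, 45.5, 43.5 and 53.7 CPM in HF-C (0.46 ± 0.18, edgeR adjusted p = 0.103). LF-C-2 and HF-C-4 met at about the same level.

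None of the 7 glycosidases passed the test, and their median log2 fold change was 0.30. The values ran from -0.38 ± 0.25 for Glb1, the beta-galactosidase gene, to 0.52 ± 0.22 for Manba, the beta-mannosidase gene. Of the membrane genes other than Laptm5, Lamp1 was at 0.28 ± 0.15, Lamp2 at -0.23 ± 0.15, the sorting receptor gene Scarb2 at -0.33 ± 0.19 and the cation channel gene Mcoln1 at -0.29 ± 0.15. Both proton pump genes had positive values without a call, 0.63 ± 0.34 for the catalytic subunit gene Atp6v1a and 0.26 ± 0.16 for the accessory subunit gene Atp6ap1. The master regulator gene Tfeb was at 17.5, 30.6, 12.3 and 12.7 CPM in LF-C and at 11.4, 10.8, 13.3, 14.8 and 11.1 CPM in HF-C. Its ranges overlapped, and the log2 fold change of -0.61 ± 0.28 (edgeR adjusted p = 0.158) was -0.02 without LF-C-1 and LF-C-2. The authors' deposited table calls 5 members higher, adding Grn, and 1 lower in this comparison.

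**Figure D2:**
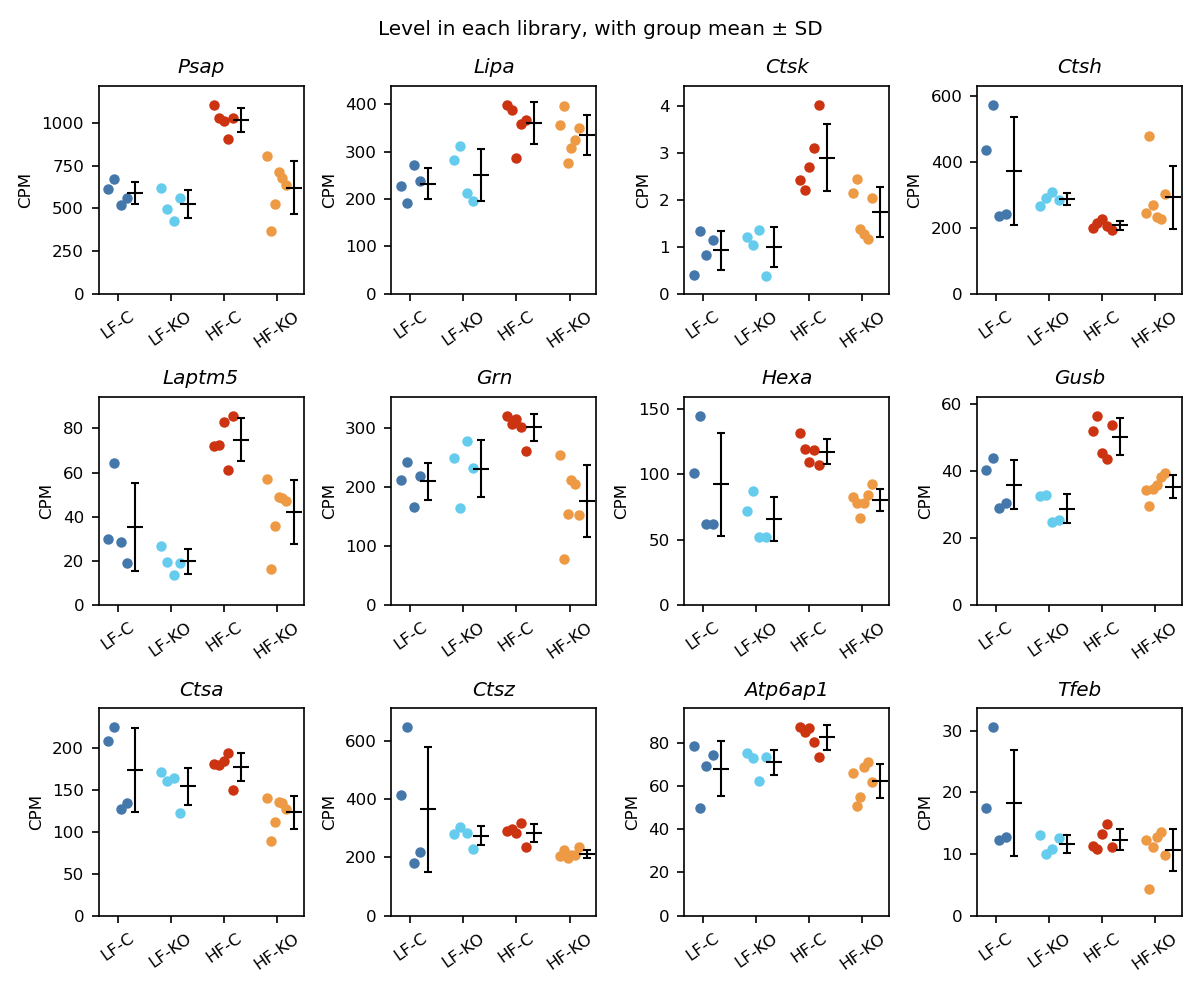
Points are the CPM of single libraries for 12 members in the 4 groups, on axes that start at 0, with the group mean and SD as black bars beside them. In the Psap panel every HF-C library lies above every library of the other groups, and in the Tfeb panel LF-C-2 (30.6 CPM) and HF-KO-2 (4.3 CPM) are the ends of the range.

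The count of members in this comparison depended on the libraries. With the GC and length trends removed, 6 members were higher (Psap, Hexa, Gusb, Ctsk, Laptm5 and Grn) and 2 lower (Lamp2 and Ctsh), which are 21.4% and 7.14% of the members beside 13.9% and 12.1% of all genes. Without LF-C-1 and LF-C-2, 11 were higher (Ctsb, Ctsk, Ctsz, Ctsa, Hexa, Gusb, Lipa, Npc2, Psap, Laptm5 and Grn) and 2 lower (Lamp2 and Scarb2), which are 39.3% and 7.14% beside 16.1% and 13% of all genes. The direction of Ctsz turned between these settings, from -0.40 ± 0.34 with all libraries (edgeR adjusted p = 0.445) to 0.51 ± 0.14 (0.0187). Hexa, the alpha subunit gene of beta-hexosaminidase, then stood at 0.92 ± 0.12 (edgeR adjusted p = 0.00022), against 0.31 ± 0.26 with all libraries. Leaving out 1 library at a time gave 2 higher members without LF-C-1, without HF-C-1, HF-C-5 or HF-C-4, or without HF-C-2, and 7 without LF-C-2. The 2 are 7.14% of the members, where 7.36% to 8.39% of all genes were higher in those settings. The 7 are 25% of the members, beside 14.5% of all genes, so the all-gene share moved too.

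The same diet contrast in KO-labelled mice, HF-KO against LF-KO, called 0 of 28 members in edgeR, with 8 members at an unadjusted p under 0.05. Of all 13624 genes, 4.68% were called, 3.62% higher and 1.06% lower. These were 637 genes, or 175 with the replicate number as a block. Scaled by library size alone, 6.63% were higher and 0.36% lower. The median log2 fold change was 0.03 over the members and 0.01 over all genes. DESeq2 called 1 member higher and 1 lower, limma-voom 0, and the authors' deposited table has 1 higher (Laptm5) and 1 lower (Ctsz). Of all genes, DESeq2 called 6.79% higher and 3.38% lower, and limma-voom 3.07% and 0.8%. In edgeR the all-gene count fell to 0 without LF-KO-3 and to 4 without LF-KO-4, so this comparison rested on those libraries.

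Laptm5 had the smallest p. It was at 26.9, 19.4, 13.3 and 19.2 CPM in LF-KO, and the HF-KO libraries ran from 16.2 over a median of 47.6 to 57 CPM. 5 of 6 HF-KO libraries exceeded every LF-KO library, and HF-KO-2 lay among them. The log2 fold change was 1.11 ± 0.30 (edgeR adjusted p = 0.0569), with an adjusted p of 0.0129 once GC and length trends were removed and 0.0529 with the replicate block added to that.

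Ctsz, a carboxypeptidase, was at 281, 305, 283 and 230 CPM in LF-KO and between 197 and 235 CPM in HF-KO (median 209). The ranges touched through LF-KO-4 alone, and the log2 fold change was -0.36 ± 0.12 (edgeR adjusted p = 0.105). Mcoln1, the channel that releases lysosomal calcium, was at 39.8, 34.7, 44.8 and 41.9 CPM in LF-KO and between 20.7 and 34.6 CPM in HF-KO (median 31.8). It was the member whose groups did not overlap here, at -0.42 ± 0.16 (edgeR adjusted p = 0.155), where 2.93% of all genes were lower and 4.6% higher without overlap. Lipa was at 283, 311, 213 and 196 CPM in LF-KO and between 277 and 397 CPM in HF-KO (median 337), at 0.42 ± 0.16 (edgeR adjusted p = 0.167). Without the libraries that followed GC, 3 members were called higher: Lipa at 0.52, Hexa at 0.49 and Laptm5 at 1.38. These are 10.7% of the members where 9.06% of all genes were higher, a share near the background.

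Whether the KO label went with lysosomal gene levels on the HF diet was asked by comparing HF-KO with HF-C. 8 of the 28 members were lower in the KO-labelled livers (Hexa, Gusb, Psap, Ctsa, Ctsz, Atp6ap1, Laptm5 and Grn) and 0 were higher, with 14 members at an unadjusted p under 0.05. The 8 are 28.6% of the members, where 9.77% of all 13915 genes tested were called, 5.43% lower and 4.35% higher. Scaled by library size alone, 9 members were lower and 0 higher, beside 7.3% and 2.48% of all genes. The median log2 fold change was -0.23 over the members and 0.02 over all genes, with 21 members negative and 7 positive. Each of the 8 had groups that did not overlap, as did Manba, where 5.68% of all genes were lower without overlap. At least 1 member of each role was lower, so the 8 are spread over proteases, glycosidases, lipid handling, membrane, pump and regulators. The comparison shares the HF-C libraries with the diet comparison in control mice, so the values of the 2 comparisons are not independent.

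Hexa had the smallest p. Its HF-C libraries were at 131, 119, 109, 119 and 107 CPM, and its HF-KO libraries ran from 66.9 over a median of 80.6 to 92.6 CPM. The groups were separated by a gap, at a log2 fold change of -0.51 ± 0.10 (edgeR adjusted p = 0.0102). The call was kept in 19 of 20 alternative settings. The gene lies on chromosome 9 at 59539667-59565105 on the plus strand. Gusb, on chromosome 5 at 129989011-130003049 on the minus strand, ran from 29.5 over 35.1 to 39.5 CPM in HF-KO, below the lowest HF-C library at 43.5. Its log2 fold change was -0.48 ± 0.11 (edgeR adjusted p = 0.0165), called in 18 of 20 settings. Of the other glycosidases Manba was at -0.35 ± 0.12 (edgeR adjusted p = 0.0772), Man2b1, Glb1 and Gla were negative without a call, and the sialidase gene Neu1 was at 0.04 ± 0.10.

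Psap ran from 365 over a median of 657 to 807 CPM in HF-KO, where its lowest HF-C library was at 909. Thus every HF-KO library was below every HF-C library. The log2 fold change was -0.68 ± 0.16 (edgeR adjusted p = 0.0205), called in 18 of 20 settings. Of the HF-KO libraries 5 of 6 were above the LF-KO mean of 525, with HF-KO-3 just above it at 527. HF-KO and LF-KO overlapped, and Psap had no call between them (0.25 ± 0.21, edgeR adjusted p = 0.575). Lipa did not follow Psap in HF-KO against HF-C. Lipa was at 398, 388, 285, 359 and 366 CPM in HF-C and between 277 and 397 CPM in HF-KO, overlapping groups, at -0.07 ± 0.12 (edgeR adjusted p = 0.732). Npc1 and Npc2 were at -0.14 ± 0.20 and 0.12 ± 0.20.

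Ctsa encodes the carboxypeptidase that protects Neu1 and Glb1 in a lysosomal complex. It was at 181, 180, 184, 194 and 150 CPM in HF-C and ran from 89.5 over 131 to 140 CPM in HF-KO (chromosome 2, 164832873-164841032, plus strand). The groups did not overlap, at -0.50 ± 0.12 (edgeR adjusted p = 0.0243). Ctsa was the gene of the 8 with a CACGTG match in its promoter, shown above before a RefSeq start that lies inside the deposited gene position. The other protease outside the cathepsins, Tpp1, had a mean of 112 ± 7.7 CPM in HF-C and 82 ± 23.4 in HF-KO, at -0.42 ± 0.18 (edgeR adjusted p = 0.145).

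Among the cathepsins Ctsz was the one called, at 290, 296, 283, 318 and 236 CPM in HF-C against 197 to 235 CPM in HF-KO (chromosome 2, 174427493-174439039, minus strand). Its nearest libraries were apart by a single CPM, at -0.39 ± 0.11 (edgeR adjusted p = 0.0354). Ctsk was at -0.71 ± 0.24 (edgeR adjusted p = 0.081). Ctsh ran opposite without a call, with HF-KO between 225 and 479 CPM against 192 to 227 in HF-C, at 0.53 ± 0.19 (edgeR adjusted p = 0.0868). Ctsl was at 0.25 ± 0.13, Ctsb at -0.20 ± 0.11 and Ctsc at -0.14 ± 0.14.

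Laptm5 ran from 16.2 over 47.6 to 57 CPM in HF-KO, with every library below the lowest HF-C library at 61.2 (-0.80 ± 0.23, edgeR adjusted p = 0.0451). Grn was at 320, 306, 315, 301 and 261 CPM in HF-C and ran from 77.6 over 179 to 254 CPM in HF-KO (chromosome 11, 102430315-102437048, plus strand). HF-KO-2 was the low end, and the groups did not overlap, at -0.75 ± 0.22 (edgeR adjusted p = 0.0463). Atp6ap1 was at 87.3, 85.1, 86.6, 80.3 and 73.2 CPM in HF-C and ran from 50.9 over 64 to 70.8 CPM in HF-KO (chromosome X, 74297097-74304721, plus strand; -0.37 ± 0.11, edgeR adjusted p = 0.0416). Atp6v1a, the catalytic subunit gene of the same pump, was at 0.09 ± 0.13. Lamp1, Mcoln1 and Tfeb were at -0.09 ± 0.10, -0.23 ± 0.13 and -0.18 ± 0.22, and Scarb2 at 0.33 ± 0.12 (edgeR adjusted p = 0.107). Lamp2, a receptor of chaperone-mediated autophagy, was at 585, 552, 572, 568 and 506 CPM in HF-C and between 594 and 1169 in HF-KO (median 646). It was the member that was higher without overlap, at 0.44 ± 0.18 (edgeR adjusted p = 0.121), where 4.05% of all genes were.

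**Figure D3:**
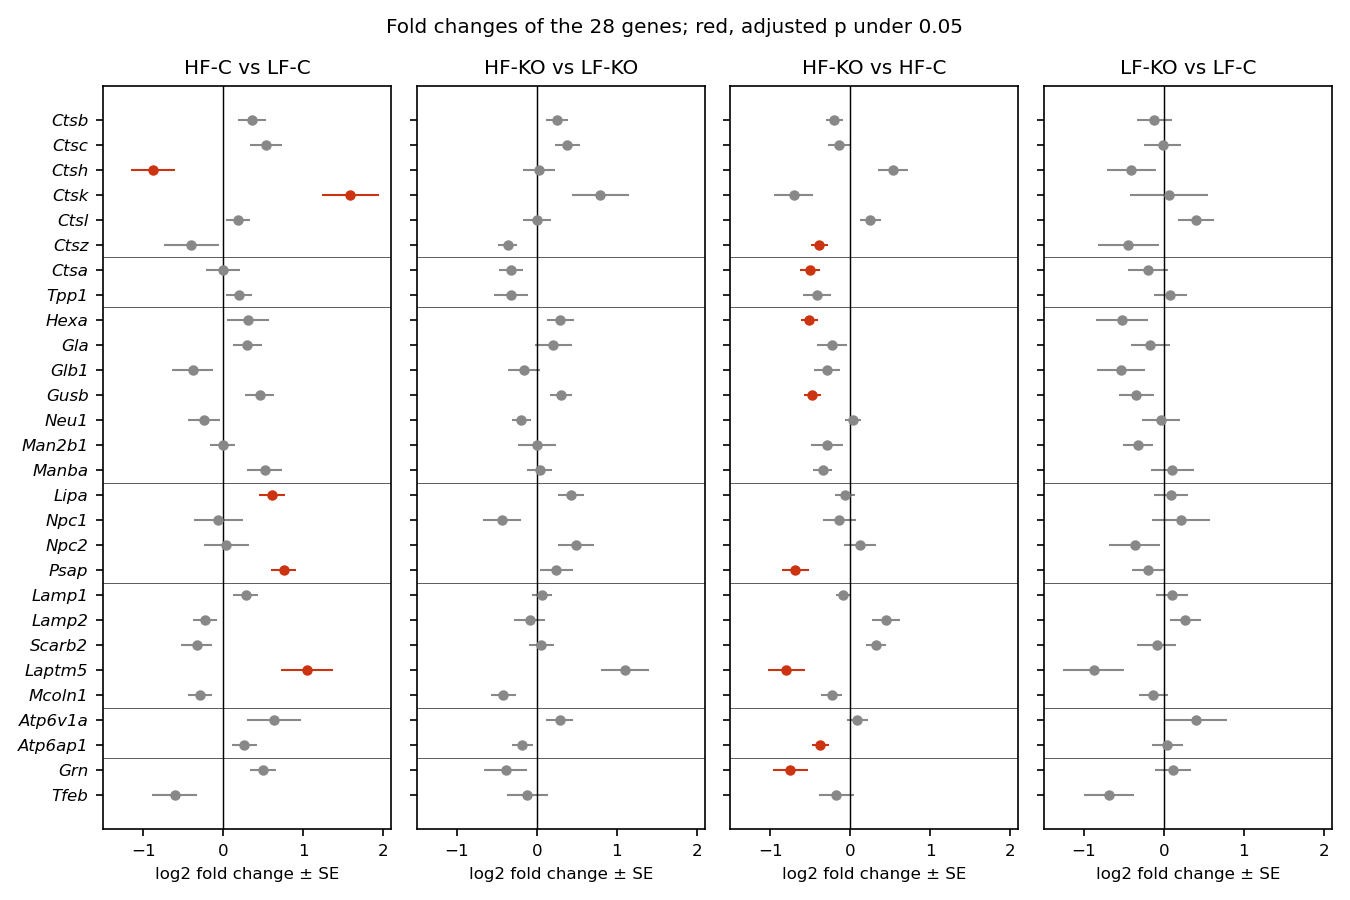
Points are log2 fold changes and bars their SE for the 28 genes, in rows by role, in the 4 pairs of groups, with genes at an adjusted p under 0.05 in red. In HF-KO against HF-C the 8 red points are all negative, between -0.37 and -0.80, and no point is red in HF-KO against LF-KO or LF-KO against LF-C.

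The GC content of transcripts moved with this comparison. Over all genes with a GC value the log2 fold changes had a Spearman rho of -0.376 with GC content, and the 8 lower members had transcripts of 51.2% to 57.3% GC, above the gene median of 49.6%. Over the 28 members rho was -0.587, and -0.287 with the GC and length trends removed (a description over genes that share the same libraries). With the trends removed 10 members were lower, the 8 and Ctsk and Manba, 0 were higher, and the median was -0.25. The 10 are 35.7% of the members, beside 8.07% of all genes lower in that setting. Without HF-KO-2, HF-KO-3 and HF-KO-6, 9 members were lower (Psap, Ctsz, Ctsa, Npc2, Hexa, Gusb, Laptm5, Gla and Grn) and 1, Scarb2, was higher. The 9 are 32.1% of the members, beside 6.78% of all genes. The sign of Npc2 turned between these settings, from 0.12 ± 0.20 with all libraries to -0.30 ± 0.09 (edgeR adjusted p = 0.0385). Atp6ap1 then had an adjusted p of 0.0643. Leaving out 1 library at a time gave 2 lower members without HF-C-1 or HF-KO-3, 3 without HF-C-2 or HF-C-4, 4 without HF-C-3, 5 without HF-C-5, HF-KO-5 or HF-KO-6, 6 without HF-KO-1 or HF-KO-4, and 9 without HF-KO-2. The 2 are 7.14% of the members, beside 3.33% of all genes without HF-C-1 and 2.92% without HF-KO-3. The counts of 3 to 6 are 10.7% to 21.4% of the members, beside 2.89% to 5.94% of all genes in those settings. The 9 are 32.1% of the members, beside 7.17% of all genes. A fit of all 19 libraries together, in which the groups share 1 estimate of the spread, called Psap alone. This is 3.57% of the members beside 2.32% of all genes lower in that fit, a share near the background. With the replicate number as a block 2 members were lower, 7.14% beside 3.49% of all genes.

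**Figure D4:**
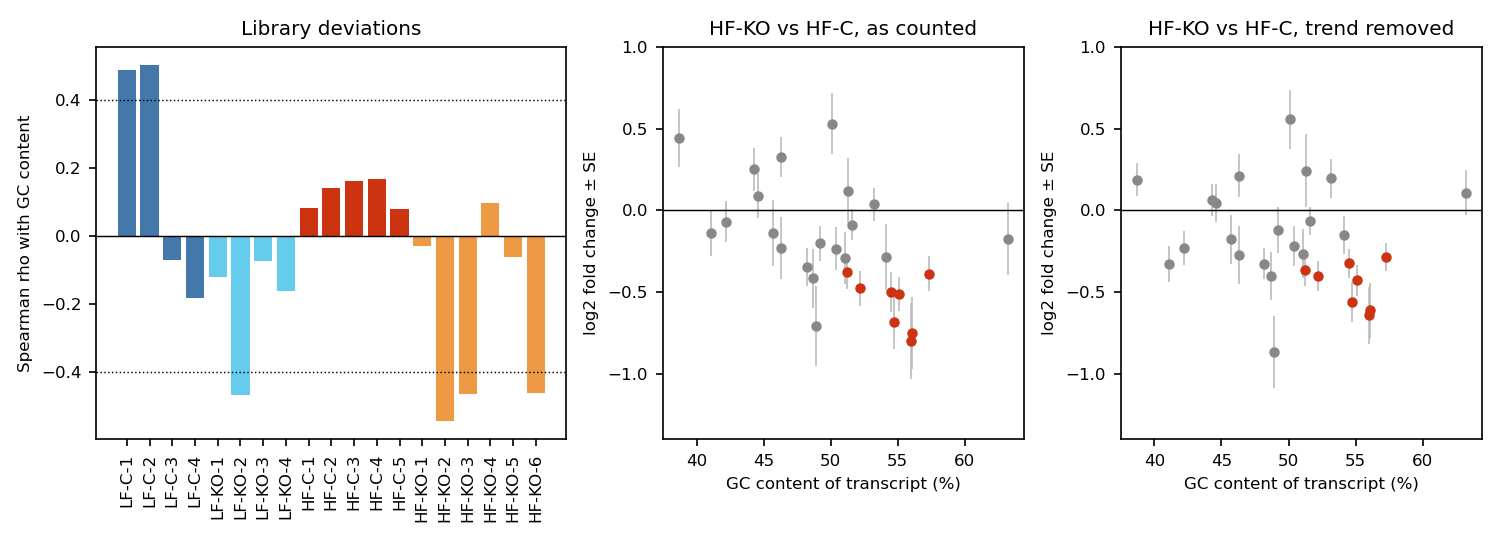
The bars give the Spearman rho between a library's deviation from the mean library and GC content over 9993 genes, with dotted lines at 0.4 and -0.4. The scatter plots give the log2 fold change ± SE of HF-KO against HF-C for the 28 members against the GC content of their transcripts, as counted and with each library's GC and length trend removed, with the 8 lower members in red. The red points remain below 0 in both plots.

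On the LF diet, LF-KO against LF-C, 0 of 28 members and 0% of 13056 genes were called in edgeR, with 1 member (Laptm5) at an unadjusted p under 0.05. DESeq2 and limma-voom called 0 members too. The median log2 fold change was -0.11 over the members and -0.03 over all genes. The spread was wide: Laptm5 was at 29.8, 64.2, 28.4 and 18.8 CPM in LF-C and 26.9, 19.4, 13.3 and 19.2 in LF-KO, overlapping groups at -0.88 ± 0.39 (edgeR adjusted p = 0.704). Tfeb was at 13, 10, 10.9 and 12.5 CPM in LF-KO, where LF-C-1 and LF-C-2 were at 17.5 and 30.6, at -0.69 ± 0.32 (edgeR adjusted p = 0.704). Glb1 was at 23, 27.6, 12.3 and 13.3 CPM in LF-C and 15.5, 12.6, 14.4 and 11.2 in LF-KO (-0.54 ± 0.30, edgeR adjusted p = 0.704), again with LF-C-1 and LF-C-2 apart. Ctsl was at 557, 385, 512 and 486 CPM in LF-C and 525, 759, 795 and 517 in LF-KO (0.40 ± 0.22, edgeR adjusted p = 0.704). Lamp2 was the member without overlap, 510 to 737 CPM in LF-C and 749 to 862 in LF-KO, where 1.81% of all genes were higher and 1.3% lower without overlap. Over the members the fold changes had a rho of -0.658 with GC content, and 0.151 with the trends removed.

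The difference of the KO effect between the diets, fitted on all 19 libraries, called 0 members in edgeR, with 3 at an unadjusted p under 0.05. Of 14391 genes, 0.202% were called, 0.125% positive and 0.0764% negative. The 4 members with the smallest p were Grn at -0.88 ± 0.34 (edgeR adjusted p = 0.308), Ctsh at 0.91 ± 0.35 (0.309), Atp6ap1 at -0.44 ± 0.21 (0.376) and Psap at -0.51 ± 0.27 (0.426), as log2 differences. Grn in LF-KO was at 249, 164, 277 and 232 CPM, a range that held all 4 LF-C libraries (165 to 241). Atp6ap1 in LF-KO was at 75, 72.9, 62.1 and 73.3 CPM, within the LF-C range of 49.8 to 78.5. The 8 members lower in HF-KO than in HF-C are thus not shown to respond differently to the KO label on the 2 diets. Without the libraries that followed GC, Ctsz at -0.83 (edgeR adjusted p = 0.0385) and Grn at -0.80 (0.0455) were called, where 0.557% of all genes were negative. With all libraries the difference of Ctsz was 0.04 ± 0.36 (edgeR adjusted p = 0.977), so its value rested on the libraries left out.

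The wider lysosomal machinery was read from 5 lists of 100 other genes, all of which were tested. In HF-C against LF-C, 14 were higher and 3 lower, beside 10.6% and 7.15% of all genes, so these shares are near the background too. Of 32 other hydrolases and activators 4 were higher and 3 lower. Ctss, the cathepsin of antigen presentation, was at 150 ± 37.6 CPM in HF-C (SD, n = 5) and 45.4 ± 12.5 in LF-C (n = 4), at 1.69 ± 0.25 (edgeR adjusted p = 0.00154). The asparaginyl endopeptidase gene Lgmn was at 1.03 ± 0.20 (0.00561) and the acid ceramidase gene Asah1 at 0.91 ± 0.24 (0.0266), whereas the ganglioside activator gene Gm2a was lower at -1.02 ± 0.25 (0.0183). Of 21 other membrane proteins 4 were higher and 0 lower. These were the tetraspanin gene Cd63 at 2.46 ± 0.40 (edgeR adjusted p = 0.00266), Gpr137b at 1.60 ± 0.20 (0.000797), the calcium and sodium channel gene Tpcn2 at 1.08 ± 0.22 (0.00735) and the nucleoside transporter gene Slc29a3 at 0.82 ± 0.20 (0.0178).

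Of 16 other proton pump subunits 2 were higher, and they included the V0 subunit gene Atp6v0d2, known from osteoclasts and macrophages, at 2.14 ± 0.38 (edgeR adjusted p = 0.00418). Atp6v1b2 was at 0.59 ± 0.14 (0.0155), and Atp6ap2 at 0.65 ± 0.22 (0.0659) and Atp6v1f at -0.64 ± 0.34 (0.213) had no call. Of 16 regulators and sorting genes 3 were higher. Rragd, a GTPase gene that tethers mTORC1 to lysosomes and a known TFEB target, was at 16.7 ± 4.91 CPM in HF-C and 2.62 ± 0.963 in LF-C, at 2.66 ± 0.34 (edgeR adjusted p = 0.000769). The TFEB relative Mitf was at 0.96 ± 0.21 (0.0115) and the sorting receptor gene Sort1 at 1.01 ± 0.21 (0.00944). The mTORC1 scaffold gene Rptor, at -0.47 ± 0.16 (0.0649), had no call. Of 15 autophagy genes 1 was higher, the cargo receptor gene Sqstm1 at 0.75 ± 0.15 (edgeR adjusted p = 0.00697), and Gabarap, Atg5 and Map1lc3b had negative values of -0.74, -0.29 and -0.27 without a call.

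In HF-KO against LF-KO 6 of the 100 genes were higher and 0 lower, beside 3.62% and 1.06% of all genes. The 6 were Ctss, Lgmn, Slc11a1, Gpr137b, Atp6v0d2 and Tfec. In HF-KO against HF-C 2 were higher (Gm2a and Fnip1) and 12 lower, beside 4.35% and 5.43% of all genes. The lower ones were named after their values were seen: the hydrolase genes Ctsd, Ctss, Lgmn, Idua and Dpp7, the membrane protein genes Cd63, Cln3, Laptm4b, Slc11a1 and Gpr137b, and Sort1 and Map1lc3a. Cd63 was at 28.8 ± 11.5 CPM in HF-KO (SD, n = 6) and 64.1 ± 8.06 in HF-C (n = 5), at -1.12 ± 0.22 (edgeR adjusted p = 0.00854). The iron and manganese transporter gene Slc11a1, known from phagocytes, was at -0.68 ± 0.15 (0.0129), Ctss at -0.68 ± 0.18 (0.034) and Ctsd, the main aspartic protease gene of the lysosome, at -0.34 ± 0.10 (0.0465). None of the 16 other pump subunits was called in HF-KO against HF-C, with 3 at an unadjusted p under 0.05 in edgeR. In LF-KO against LF-C and for the difference between diets 0 of the 100 were called, with 3 and 9 at an unadjusted p under 0.05.

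Markers of recruited and lipid-associated macrophages moved with the diet, and with the KO label on the HF diet. Other macrophage lists moved less or in both directions. Of 12 markers of recruited and lipid-associated macrophages, 10 were higher in HF-C than in LF-C, 10 were higher in HF-KO than in LF-KO, 9 were lower in HF-KO than in HF-C, and 0 were called in LF-KO against LF-C. Their summed level ran from 65.6 to 148 CPM in LF-C, 73.9 to 177 in LF-KO, 509 to 803 in HF-C and 190 to 409 in HF-KO, and none of the 12 was at 0 throughout a group. Spp1 alone was at 335 ± 130 CPM in HF-C and 36.2 ± 9.88 in LF-C, so it weighs heavily in these sums. The list holds Cd68, itself a lysosomal membrane protein. Of 10 markers shared by all macrophages, 1 was higher in HF-C than in LF-C, 7 in HF-KO than in LF-KO, and 1 was lower in HF-KO than in HF-C. Their sum ran from 325 to 1440 CPM in LF-C, 254 to 480 in LF-KO, 891 to 1514 in HF-C and 600 to 1038 in HF-KO. The 1440 CPM was LF-C-2 alone, with the other LF-C libraries at 325 to 494 CPM. Of 8 Kupffer cell markers, 1 (Cd5l) was higher and 2 (Timd4 and Cd163) were lower in HF-C than in LF-C. Cd5l was also higher in HF-KO than in LF-KO, and Cd163 was higher in HF-KO than in HF-C. In HF-C against LF-C 4 of the 8 were positive and 4 negative, with a median log2 fold change of -0.25. Cd5l was at 323 ± 65 CPM in HF-C and 141 ± 59.6 in LF-C, so it weighs heavily in the sums of the list. Their sums were 295 to 865 CPM in LF-C, 215 to 323 in LF-KO, 419 to 739 in HF-C and 367 to 827 in HF-KO. LF-C-2 was again the highest LF-C library, with the others at 295 to 387 CPM. Of 10 hepatocyte markers, 8 were lower in HF-C than in LF-C, 4 (Alb, Tat, Cyp2e1 and Serpina1c) were lower in HF-KO than in LF-KO, and 4 were higher in HF-KO than in HF-C. The part of these cells in the lysosomal results was not tested.

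**Figure D5:**
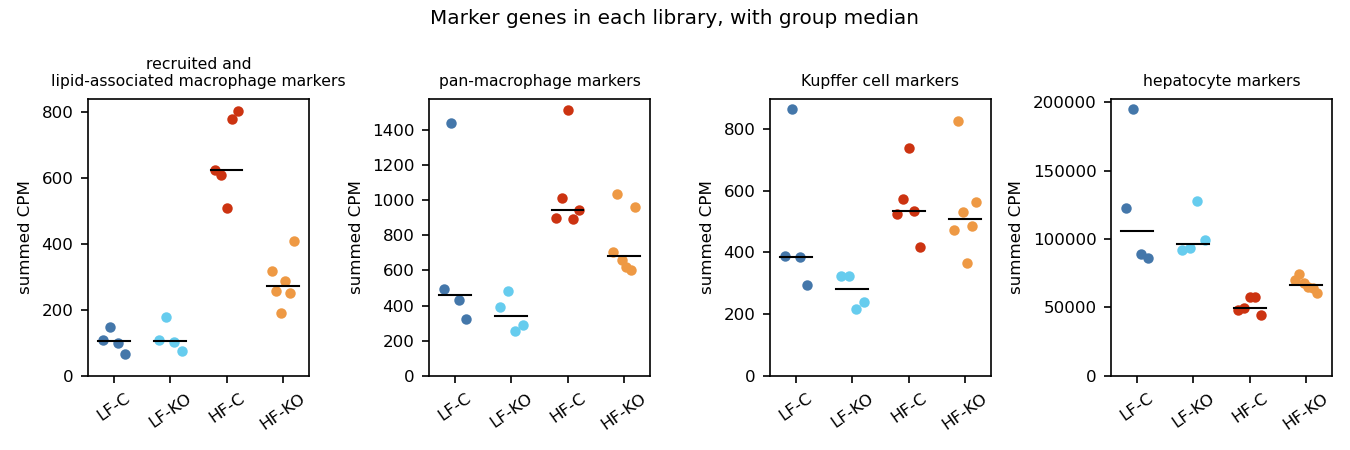
Points are the summed CPM of a marker list in single libraries of the 4 groups, on axes that start at 0, with a black line at the group median. The recruited and lipid-associated macrophage markers separate HF-C (509 to 803 CPM) from HF-KO (190 to 409 CPM) and both from the LF groups. For Kupffer cell markers LF-C-2 (865 CPM) is the high end of LF-C. The other LF-C libraries (295 to 387 CPM) lie below HF-C, and LF-KO (215 to 323 CPM) lies below both HF groups. Cd5l weighs heavily in this sum, with a mean of 323 CPM in HF-C and 141 in LF-C. Of the 8 markers, 4 had negative log2 fold changes in HF-C against LF-C.

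Other cell types were less regular. Of 8 hepatic stellate cell markers, 3 (Pdgfrb, Col1a1 and Col3a1) were higher in HF-C than in LF-C and lower in HF-KO than in HF-C. Of 5 cholangiocyte markers, 2 were higher in HF-C than in LF-C and 4 were lower in HF-KO than in HF-C, at sums of 20.5 to 60.3 CPM in HF-C and 9.91 to 22.4 in HF-KO, with LF-C-2 at 96.2. Of 7 sinusoidal endothelial markers, 1 was lower in HF-C than in LF-C and 0 were called in HF-KO against HF-C, where edgeR gave 2 at an unadjusted p under 0.05. T and NK cell, B cell and neutrophil markers summed to at most 18.8 CPM in any library, with Ly6g at 0 in the libraries of LF-KO and HF-KO. In HF-C against LF-C, 1 T and NK cell marker and 1 neutrophil marker were higher.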

How the data were processed

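RNA of 19 mouse livers was sequenced as paired ends from libraries that do not keep the strand, and mapped with STAR 2.5, per the labels' protocols. HTSeq 0.6.1 and DESeq2 are named in the submitters' processing notes. The genome build is not given in the sources used here, nor is the annotation. The authors deposited 4 tables, 1 per pair of groups, with a count and an FPKM value per gene and library, gene length and position. They also deposited group mean signal values, log2 fold changes and p-values, which are used here only where the authors' deposited table is named. The 4 tables were joined to 24192 genes, and the 38 columns that recur between tables were identical. FPKM recomputed from counts and lengths deviated by at most 4.98e-12 in relative terms. No 2 libraries of a group agreed within sampling noise.

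The counts were tested with edgeR 4.0.16 in R 4.3.3 (quasi-likelihood, TMM factors, filterByExpr), for each pair of groups on its own libraries and for the difference of the KO effect on all 19. P-values were adjusted by Benjamini-Hochberg over all genes tested, with calls made below an adjusted p of 0.05. A ± beside a log2 fold change is its SE, and a ± beside a level is the SD over libraries. Adjusted p-values are edgeR's unless another tool is named. The fits were tested on simulated data. Alternatives were DESeq2 1.42.0, limma-voom (limma 3.58.1), other scalings, no filter, a joint fit, a replicate block, leaving out each library, and, chosen after seeing the data, removal of each library's GC and length trend (lowess, span 0.3) and leaving out the 6 libraries that followed GC. In HF-KO against LF-KO the deviations of same-numbered libraries correlated positively (r of 0.377, 0.279, 0.161 and 0.111 over 10019 genes). This was found in the data and not in the labels. Libraries of different number were not compared, so these r cannot show a pairing. The blocked count stands beside that result.

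The 28 genes, the 5 pathway lists and the 10 marker lists were chosen with earlier results of these data known. Values in every library (for the 6 HF-KO libraries, mostly the lowest, median and highest) are given for the 8 members with the smallest p in HF-C against LF-C, the 4 with the smallest p in every other comparison, Tfeb, and members with a library apart by Dixon's ratio; from each pathway list up to 4 genes with the smallest p in HF-C against LF-C are named. Adgre1 is listed under its older symbol Emr1. Groups of 4 to 6 libraries limit the precision of each value.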

Additional observations from a re-analysis of the deposited data

Results flagged for a closer look

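In 6 of 112 combinations of a member and a group, 1 library lay apart from the others of its group by Dixon's ratio, where chance gives about 1 in 20. HF-KO-2 was the highest HF-KO library for Ctsh, at 479 CPM against 225 to 301 in the others, and for Lamp2, at 1169 CPM against 594 to 771. HF-KO-2 is the library with the most negative correlation with GC content (-0.544). Without it, Ctsh was at 0.32 in HF-KO against HF-C (edgeR adjusted p = 0.0487), against 0.53 with it. LF-C-1, which was rich in GC, was the highest LF-C library for Mcoln1, at 52.4 CPM against 40.1, 41.1 and 40.2. LF-KO-1 was the highest LF-KO library for Tpp1, at 124 CPM against 94.5, 95.9 and 98.2. LF-KO-3 was the lowest LF-KO library for Atp6ap1, at 62.1 CPM against 75, 72.9 and 73.3. HF-C-5 was the lowest HF-C library for Glb1, at 14.1 CPM where the other 4 lay between 15 and 15.2. The part of GC content in these values was not tested.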

How the results depend on the processing

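No member called in the fits as designed changed direction under an alternative that was run. Of 2856 member values under alternatives, 196 had the other sign, all of members without a call as designed. 3 of these were called, each without the libraries that followed GC: Ctsz in HF-C against LF-C, Npc2 in HF-KO against HF-C, and Ctsz for the difference between diets. In HF-C against LF-C the count of higher members was 12 with library size alone, 0 with the replicate block and 11 without the libraries that followed GC. The shares of all genes that were higher were 19.7%, 3.8% and 16.1% in that order. The count of lower members was 0 with library size alone, limma-voom, no filter or the block, and 2 with the GC and length trends removed or without the libraries that followed GC. The shares of all genes that were lower were 2.36%, 5.61%, 3.64%, 1.1%, 12.1% and 13% in that order. In HF-KO against LF-KO higher members were 2 with library size alone, 1 with DESeq2, no filter or the trends removed, and 3 without the libraries that followed GC, and DESeq2 called 1 lower. The shares of all genes that were higher were 6.63%, 6.79%, 1.95%, 6.72% and 9.06% in that order, and DESeq2 called 3.38% lower. In HF-KO against HF-C the lower members were 1 in the fit of all 19 libraries and 2 with the block, and 1 was higher without the libraries that followed GC. Beside these, 2.32% and 3.49% of all genes were lower and 6.06% higher in the same settings. For the difference between diets 2 members were lower without the libraries that followed GC, beside 0.557% of all genes. All-gene counts in HF-C against LF-C were 3870 with DESeq2, 3795 in the joint fit, 666 with the block and 4213 without the libraries that followed GC. In HF-KO against LF-KO they were 1386 with DESeq2, 175 with the block, 1369 with the trends removed, 426 with the block and the trends removed together, and 1941 without the libraries that followed GC. In HF-KO against HF-C they were 2347 with DESeq2, 531 in the joint fit and 781 with the block. In LF-KO against LF-C they were 6 with DESeq2, 1 in the joint fit and 2 without the libraries that followed GC. For the difference they were 15 with library size alone, 213 with DESeq2, 16 with limma-voom, 7 with the block, 125 with the trends removed and 247 without the libraries that followed GC. The cause was not tested.

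Scaling by library size alone shifted the all-gene median (log2) to 0.43, 0.19, -0.11, 0.10 and -0.23 (HF-C against LF-C, HF-KO against LF-KO, HF-KO against HF-C, LF-KO against LF-C, and the difference), and that of the members to 0.62, 0.21, -0.36, 0.042 and -0.39. Leaving out 1 library at a time gave 2 to 7 higher and 0 to 1 lower members in HF-C against LF-C, 0 to 1 higher in HF-KO against LF-KO, and 0 to 1 higher and 2 to 9 lower in HF-KO against HF-C. Of all genes, 7.36% to 14.5% were higher and 3.29% to 11.5% lower in HF-C against LF-C. In HF-KO against LF-KO 0% to 6.4% were higher. In HF-KO against HF-C 1.95% to 5.91% were higher and 2.89% to 7.17% lower. All-gene counts ranged from 1451 to 3478, 0 to 1214, 704 to 1813, 0 to 1 and 7 to 48 in the same order, and member medians from 0.15 to 0.30, -0.01 to 0.07, -0.29 to -0.20, -0.15 to -0.05 and -0.22 to -0.08. Outside HF-KO against LF-KO, r of same-numbered libraries ranged from -0.310 to 0.106 in HF-C against LF-C, -0.233 to 0.242 in HF-KO against HF-C and -0.275 to 0.260 in LF-KO against LF-C. No label says what the number marks. With 4 to 6 libraries a group, Ctsk, at 4 to 82 fragments, is the member that depth limits most.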
